A study of Mus musculus with 12 samples.

Results

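Runx1, Tal1, Gata2, Meis1, Myb and Lmo2 encode transcription regulators of blood stem and early progenitor cells. Runx1 is the DNA-binding subunit of core binding factor. Tal1 is a helix-loop-helix protein that works in a complex with Lmo2, a LIM-domain bridging protein, and with GATA factors such as Gata2. Meis1 is a homeodomain cofactor of HOX proteins, and Myb is a proto-oncogene needed for definitive blood formation. The CpGs described here lie in 6 windows of the mouse build mm9 (620 kb in all) around these genes, and a CpG was a member when it had at least 10 reads in at least 2 libraries of each group, both strands summed. The rule gave 1109 CpGs of the 1157487 autosomal CpGs tested. Runx1 held 277, Gata2 293, Meis1 253, Tal1 122, Myb 103 and Lmo2 61, and 640 further listed CpGs of the windows did not pass the coverage rule. Promoters of active genes are commonly CpG islands with little methylation, and CpGs away from them are commonly highly methylated. Tet2 oxidises methylcytosine, a step toward loss of methylation, and Nras is a signalling GTPase.

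The libraries measured DNA methylation by reduced representation bisulfite sequencing, which reads the CpG-rich fragments left by the enzyme MspI. The cells were bone marrow LSK cells (lineage negative, Sca1 positive, cKit positive), a sorted fraction that contains the blood stem and early progenitor cells. There were 4 groups of 3 libraries, all C57BL/6 and 6 months old per the series design: Nras G12D, Tet2 knockout, and the double mutant without and with leukemia, all carrying conditional, blood-specific alleles. The double mutant without leukemia is called the nonleukemic double mutant and the one with leukemia the double mutant labelled leukemic, a name read from the sample titles and the series design. Wild-type libraries, which the design names, were not analysed here, so the genotypes are compared with one another only. The labels do not say that the libraries of a group came from separate animals, so the p-values describe only how these libraries vary, which may be technical. No expression data were used, and the sorted cell type was not checked against marker genes. Libraries held 96300485 to 199736369 reads over listed cytosines, and the median coverage of a member CpG ranged from 12.5 upward with a median of 87 reads. PCR copies count as reads, because no molecular identifiers are named. CpGs whose mean over the 4 groups was under 20% are called low here (808), and the others methylated (301).

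The promoters that could be placed on mm9 were at or near 0 in nearly all libraries. RefSeq promoter sequences (build GRCm38.p6) were placed by the spacing of the CpGs that the deposited tables list, and a promoter was placed when at least 8 listed CpGs fell on CG dinucleotides at 1 place of the chromosome. This placed 1 promoter of Runx1, 2 of Gata2, 1 of Myb and 1 of Tal1. Another listed promoter of Runx1 and another of Tal1 (promoter 1 of each) could not be placed. Distances at these 2 genes are therefore from promoter 2, and do not tell whether a site lies inside the gene. Meis1 was placed with at least 6 listed CpGs, a limit chosen after the data were seen, and Lmo2 is not in the promoter table. The 250 bases before 5 of these starts are shown because they carry the low islands on which the loci are centred. Capitals mark the CpGs measured here, written 5′ to 3′ on the gene's strand.

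Runx1 promoter 2, mm9 chr16:92697575-92697824, minus strand: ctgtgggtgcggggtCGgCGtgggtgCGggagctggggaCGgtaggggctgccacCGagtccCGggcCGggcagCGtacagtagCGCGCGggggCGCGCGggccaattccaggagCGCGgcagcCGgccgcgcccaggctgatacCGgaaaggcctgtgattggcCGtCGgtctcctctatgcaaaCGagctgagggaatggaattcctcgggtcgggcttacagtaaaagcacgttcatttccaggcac
Gata2 promoter 1, mm9 chr6:88143635-88143884, plus strand: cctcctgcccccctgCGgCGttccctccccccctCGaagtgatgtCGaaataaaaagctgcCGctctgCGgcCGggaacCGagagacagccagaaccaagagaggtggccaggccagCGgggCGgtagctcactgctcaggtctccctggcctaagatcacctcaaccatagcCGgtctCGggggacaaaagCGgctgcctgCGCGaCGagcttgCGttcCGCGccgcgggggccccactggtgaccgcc
Gata2 promoter 2, mm9 chr6:88148408-88148657, plus strand: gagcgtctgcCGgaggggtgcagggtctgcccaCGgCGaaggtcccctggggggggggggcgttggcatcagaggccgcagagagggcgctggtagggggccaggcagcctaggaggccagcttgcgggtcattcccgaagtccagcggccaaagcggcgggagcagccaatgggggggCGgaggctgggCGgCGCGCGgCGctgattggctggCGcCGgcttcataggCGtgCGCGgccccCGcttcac
Myb promoter, mm9 chr10:20880791-20881040, minus strand: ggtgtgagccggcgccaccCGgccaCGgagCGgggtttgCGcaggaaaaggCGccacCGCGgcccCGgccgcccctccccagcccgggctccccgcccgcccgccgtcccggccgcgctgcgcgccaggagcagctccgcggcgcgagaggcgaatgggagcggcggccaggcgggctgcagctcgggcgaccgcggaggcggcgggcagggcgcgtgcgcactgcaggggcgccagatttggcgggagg
Meis1 promoter, mm9 chr11:18918973-18919222, minus strand: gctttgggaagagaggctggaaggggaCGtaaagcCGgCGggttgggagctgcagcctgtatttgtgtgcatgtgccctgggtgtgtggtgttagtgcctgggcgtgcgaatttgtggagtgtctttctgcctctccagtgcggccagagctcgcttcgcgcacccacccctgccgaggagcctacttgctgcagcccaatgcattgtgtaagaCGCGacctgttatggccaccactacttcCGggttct

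The 300 bases around each of these 5 starts had a methylation of at most 4.06% in every library with reads there, and the highest value was that of Gata2 promoter 1 in Tet2 knockout replicate 3. The Runx1 promoter was read at 29 CpGs and did not pass 0.327% in any library. Myb, read at 8 CpGs, was at 0 in the 10 libraries with reads there. The Tal1 promoter, read at 3 CpGs, was at 6.06% in Tet2 knockout replicate 1 and at 0 in the 8 other libraries with reads there. Over the 85 CpGs of the placed promoters of these 5 genes with Tal1, no CpG was called in any of the 6 comparisons of the groups. A CpG was called when its quasi-binomial test with limma-type moderation had an adjusted p under 0.05 over all tested CpGs and the difference was at least 25 points. No CpG of these promoters had a mean over the 4 groups above 4.22%, so 25 points were out of reach there. The absence of calls therefore says nothing about smaller changes. The unadjusted p of the double mutant labelled leukemic against the nonleukemic one was under 0.05 at 1 CpG higher and 3 lower. Of all tested CpGs, 3.62% were higher and 10% lower at that limit.

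**Figure D1:**
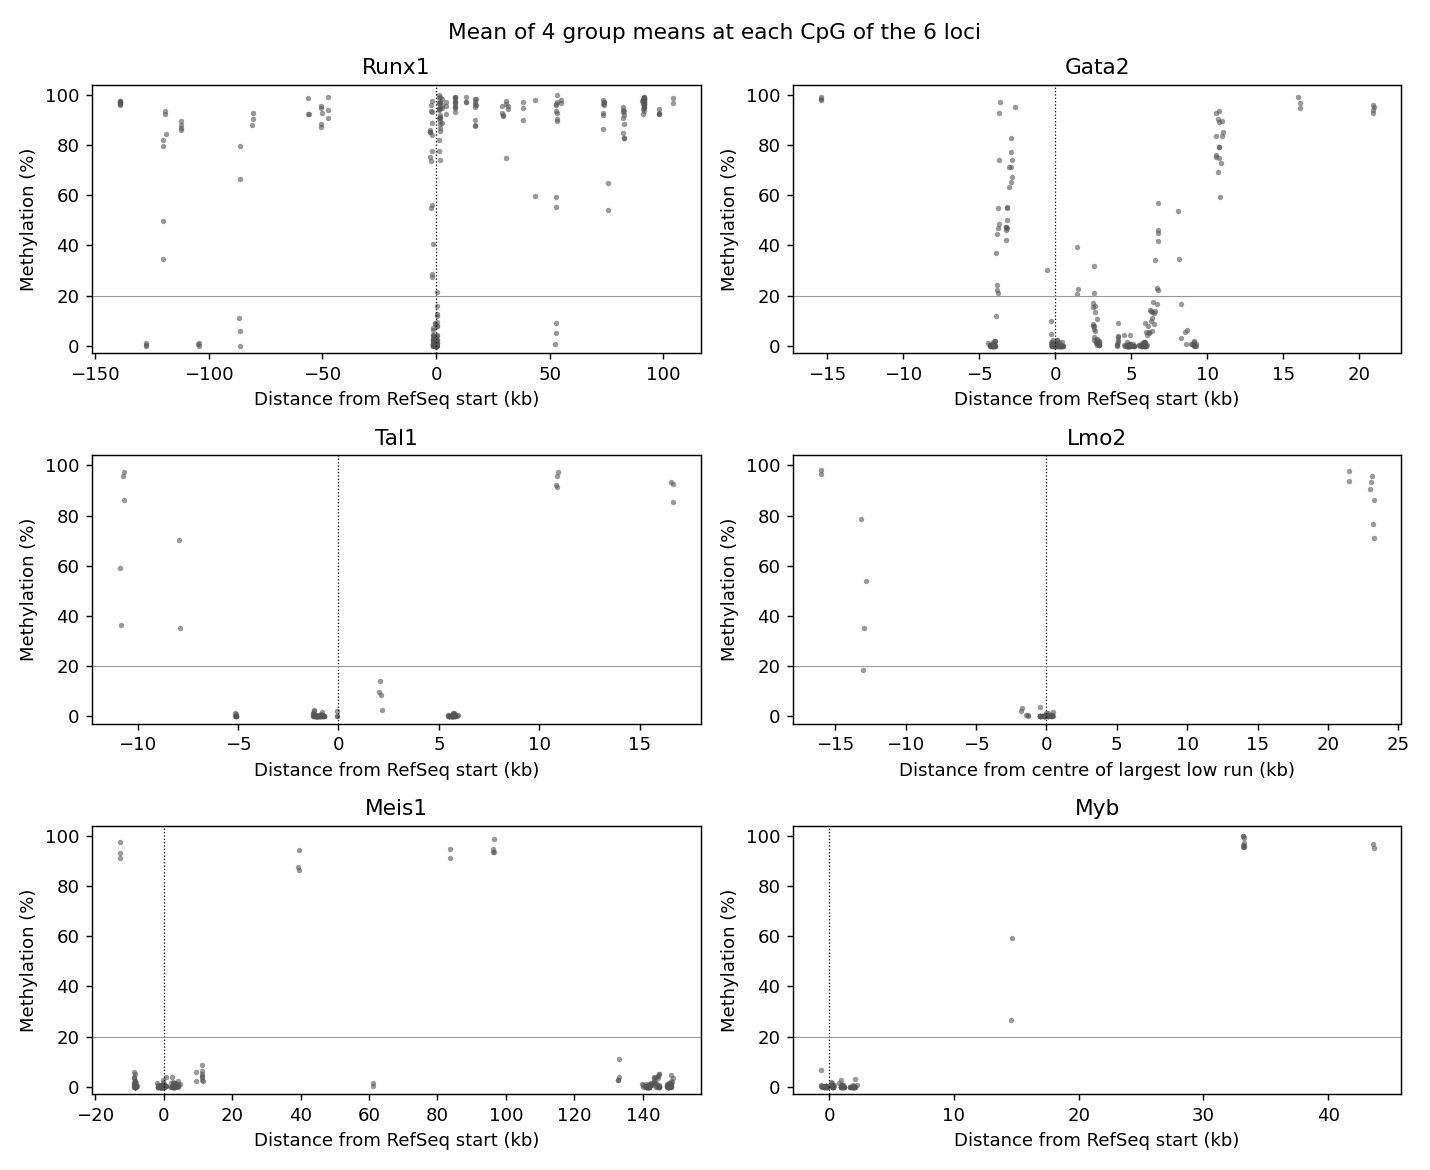
Methylation of each member CpG (y axis, percent, mean of the 4 group means) against its distance in kb from the RefSeq start (x axis, for Lmo2 from the centre of its largest low run). The line at 20% separates low from methylated CpGs, and the low islands sit at the starts at Runx1, Gata2, Tal1, Meis1 and Myb.

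Around the starts, and at Lmo2 around the centre of its largest low run, the low CpGs formed stretches of different lengths. Their lengths depend on which CpGs were read. At Myb no methylated member CpG lay on the side of higher coordinates. At Lmo2 the nearest methylated members were 12829 bp and 21463 bp from that centre. At Runx1, 62 low CpGs covered 1543 bp, ending 343 bp and 1233 bp from the start at CpGs of 21.5% and 40.6%. At Gata2, 57 low CpGs covered 787 bp around promoter 1 and 115 covered 3984 bp around promoter 2. Myb had 91 low CpGs over 2895 bp, and Lmo2 47 over 2295 bp. Meis1 had 142 low CpGs over 19987 bp and Tal1 108 over 11103 bp. Levels within the low class ranged from 0.30% (Myb) to 2.50% (Gata2, promoter 2) as a mean over the stretch. Away from the start of promoter 2, Runx1 had a low run 52.6 kb after it (4.8%) and others 86.4 kb (19.5%), 104.5 kb (0.6%) and 127.7 kb (0.6%) before it. Meis1 also had low runs 132.9 to 148.2 kb after its start.

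The low class differed little between groups. Over the 667 low CpGs read in all 12 libraries Nras G12D had a mean of 1.16% ± 0.53, Tet2 knockout 1.28% ± 0.40, the nonleukemic double mutant 1.14% ± 0.22 and the one labelled leukemic 1.24% ± 0.19 (SD, n = 3). The exact two-sided permutation p ranged from 0.6 to 1, and 0.1 is the smallest that 3 libraries against 3 can give. Of the 45 low runs (stretches of at least 3 CpGs with gaps of at most 200 bp), 0 were called in any comparison by the quasi-binomial test or by limma. A run call also needs a minimum difference, given with the processing below. Most of these runs had means under that minimum, so they could not be called lower. Their lack of calls therefore says nothing about smaller changes. Of all low runs of the genome, 0.183% were called higher and 0.494% lower between the double mutants, 0.241% and 1% against Tet2 knockout, and 0.191% and 0.199% against Nras G12D. At an unadjusted p under 0.05, 2 of the 45 (4.44%) were lower and 5 (11.1%) higher in the double mutant labelled leukemic than in the nonleukemic one, against 6.79% and 5.48% of all low runs.

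Meis1 was the locus where the low class was higher in every labelled leukemic library than in every other library. The Meis1 means per library were 1.06%, 2.09% and 1.54% there, against 0.46%, 0.37% and 0.91% for Nras G12D, 0.36%, 0.53% and 0.88% for Tet2 knockout and 0.43%, 0.55% and 0.75% for the nonleukemic double mutant. The 3 labelled leukemic libraries were above all 9 others, with a mean of 1.56% ± 0.52 (SD, n = 3). The difference from the nonleukemic double mutant was 0.98 points (exact permutation p = 0.1, adjusted over the 6 comparisons 0.2). Low Lmo2 CpGs went the other way, at 0.38% ± 0.09 against 1.58% ± 0.38 in the nonleukemic double mutant (SD, n = 3), also with separated libraries (exact permutation p = 0.1). The largest low run of Lmo2 (42 CpGs) differed less, at 0.23% against 0.40% (adjusted p = 0.717, quasi-binomial test). Its sign turns without nonleukemic replicate 2 (0.0576 points). Low Runx1 CpGs were at 2.46% ± 1.15 in Tet2 knockout and 0.99% ± 0.39 in the double mutant labelled leukemic (SD, n = 3; exact permutation p = 0.1, adjusted 0.3). That difference of -1.46 points is -0.80 without Tet2 knockout replicate 2, which was at 3.78% against 1.83% and 1.75% in replicates 1 and 3. At the low Runx1 CpG 92697932, Tet2 knockout replicate 2 was at 100% and every other library at 1.32% or less. This single CpG raises the mean of that library, and the difference was not computed without it.

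Within Meis1, 3 low runs were picked for mention after their values were seen. The run at 18775663 to 18775710 (4 CpGs) lies 143.3 kb after the Meis1 start. It was at 5.9%, 6.9% and 13.2% in the double mutant labelled leukemic, against 0.0%, 0.9% and 0.4% in the nonleukemic one. Its difference of 8.26 points (adjusted p = 0.046, quasi-binomial test) stayed under the 10 points a call needs. A run of 11 CpGs at 18774129 to 18774484, 144.7 kb after the start, was at 4.8%, 6.5% and 4.2% against 0.7%, 0.2% and 1.9%. A further run of 7 CpGs at 18907628 to 18907819, 11.3 kb after the Meis1 start, had 5.3%, 13.0% and 10.6% against 5.2%, 4.2% and 4.0%. The large Meis1 run at the start (54 CpGs) was at 0.3% on average over the groups.

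**Figure D2:**
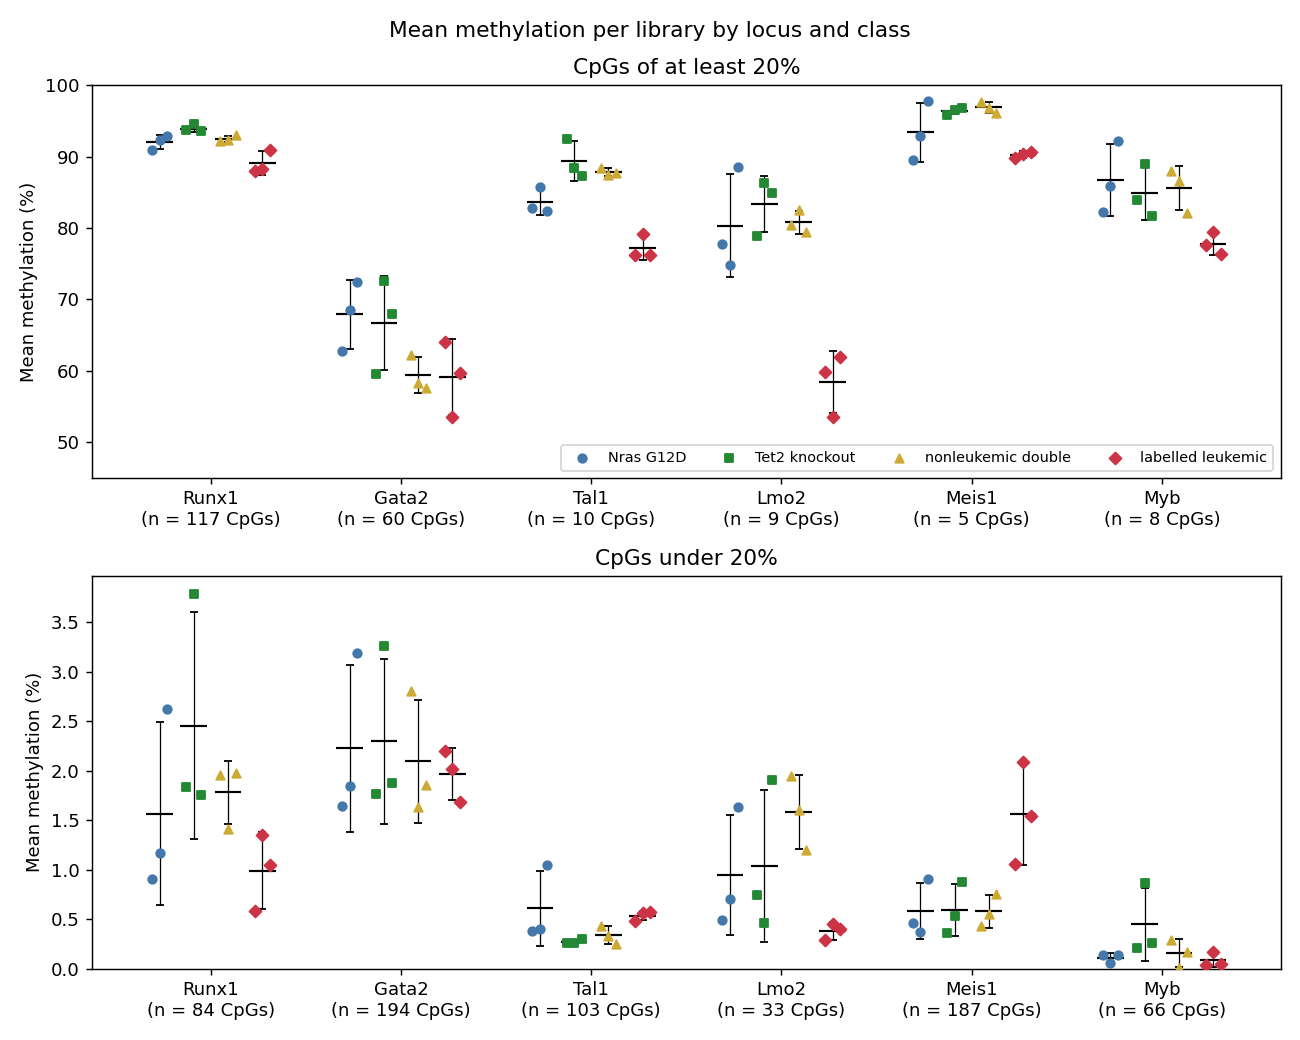
Mean methylation per library (points, percent), with the group mean and SD (bars), for CpGs of at least 20% (top) and under 20% (bottom) at each locus, over CpGs read in all 12 libraries. In the top panel the group mean of the double mutant labelled leukemic is the lowest at all 6 loci, by the most at Lmo2 (58.4%), while at Gata2 it lies close to the nonleukemic one (59.1% and 59.4%).

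The methylated flanks were lower in the double mutant labelled leukemic. Over the 209 methylated CpGs read in all 12 libraries, Nras G12D had a mean of 84.0% ± 2.41, Tet2 knockout 85.2% ± 2.28, the nonleukemic double mutant 82.1% ± 0.68 and the double mutant labelled leukemic 78.2% ± 1.85 (SD, n = 3). The 3 labelled leukemic libraries (79.0%, 76.1% and 79.5%) were below all 9 others, of which the lowest was 81.6%. The difference from the nonleukemic double mutant was -3.91 points (exact permutation p = 0.1, adjusted 0.2), from Tet2 knockout -6.94 and from Nras G12D -5.83. Over all 348091 methylated CpGs of the genome read in all libraries, the same 3 differences were -6.18, -7.02 and -5.26 points, with no test.

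By locus, Lmo2 had the widest difference among the methylated flanks. Its 9 CpGs were at 59.8%, 53.5% and 62.0% in the double mutant labelled leukemic, and no other library was under 74.8%. The group mean was 58.4% ± 4.40 against 80.8% ± 1.58 in the nonleukemic double mutant (SD, n = 3; difference -22.4 points). These 9 CpGs include the first and last CpG of the called Lmo2 run described below, so the 2 results are not separate. The other methylated run of Lmo2 (6 CpGs) was -11.4 points and not called (adjusted p = 0.0753, quasi-binomial test). Tal1 (10 CpGs) was at 77.2% ± 1.69 against 87.9% ± 0.52 in the nonleukemic double mutant, 83.6% ± 1.84 in Nras G12D and 89.4% ± 2.76 in Tet2 knockout (SD, n = 3). Myb (8 CpGs) was at 77.8% ± 1.57 against 85.6% ± 3.05, Meis1 (5 CpGs) at 90.3% ± 0.45 against 96.9% ± 0.74, and Runx1 (117 CpGs) at 89.1% ± 1.66 against 92.5% ± 0.42 (SD, n = 3). At Lmo2, Tal1 and Myb the labelled leukemic libraries were below all others, and at Meis1 and Runx1 they overlapped Nras G12D. The exact permutation p is 0.1 in each of these 5 comparisons with the nonleukemic double mutant, and the adjusted p is 0.12 to 0.3.

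Gata2 went another way. Its 60 methylated CpGs were at 67.9% ± 4.83 in Nras G12D and 66.7% ± 6.58 in Tet2 knockout, and both double mutants were lower, at 59.4% ± 2.51 (nonleukemic) and 59.1% ± 5.27 (labelled leukemic; SD, n = 3). The nonleukemic double mutant had 62.2%, 58.3% and 57.6%, which is under the 62.8%, 68.5% and 72.4% of Nras G12D but overlaps the 59.5%, 72.5% and 67.9% of Tet2 knockout. The exact permutation p of the first is 0.1 (adjusted 0.4), and of the second 0.2.

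The Gata2 flank is partly methylated rather than fully methylated: 47 of its 69 methylated CpGs were between 20% and 80%, against 22 of 181 at Runx1. The run at 88140666 to 88141235 (17 CpGs) lies 2.9 kb before promoter 1. Nras G12D libraries had 70.5%, 79.0% and 81.9%, and Tet2 knockout 63.5%, 92.6% and 84.6%. The nonleukemic double mutant had 69.0%, 63.0% and 50.7%, and the one labelled leukemic 70.2%, 37.7% and 69.9%. The libraries of both double mutants were below all 3 Nras G12D libraries and overlapped each other. Of all methylated runs of the genome, 4.28% (nonleukemic) and 18.4% (labelled leukemic) lay wholly below Nras G12D. No comparison of the run was called by the quasi-binomial test, with -16.2 points for nonleukemic (adjusted p = 1) and -17.9 for labelled leukemic (0.336) against Nras G12D, and -20.9 for labelled leukemic against Tet2 knockout (0.0649). Between the double mutants it was -1.63 points (adjusted p = 0.988), and that sign turns without labelled leukemic replicate 2 (9.17 points) or without nonleukemic replicate 1 (2.45 points).

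**Figure D3:**
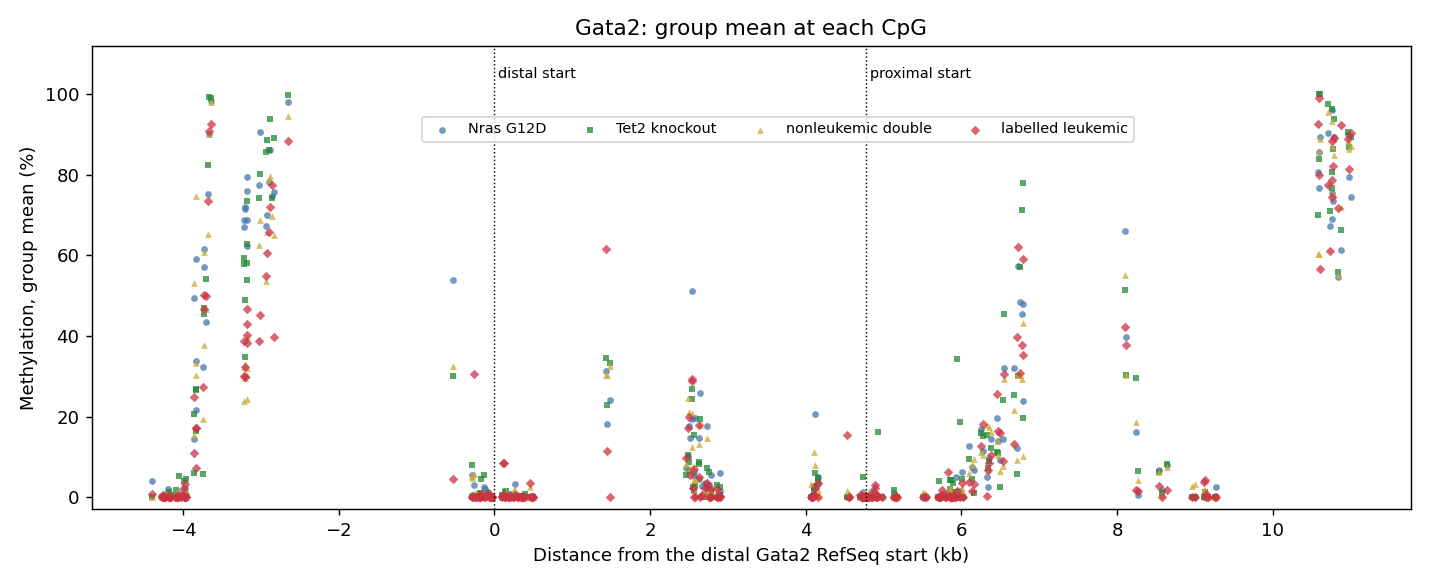
Group mean methylation (y axis, percent) at each Gata2 CpG against its distance from the distal RefSeq start (x axis, kb), with dotted lines at both starts. CpGs at the starts are near 0 in all groups, and those around 3 kb before the distal start spread between groups.

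At the level of single runs, calls were made at Runx1 and Lmo2 and only downward in the double mutant labelled leukemic. Of the 85 member runs, 5 were called lower against the nonleukemic double mutant, where 4.52% of all 104190 runs of the genome were called lower. Against Tet2 knockout 6 were called (8.31% of all runs), and against Nras G12D 3 (2.45%). The members' shares were 5.88%, 7.06% and 3.53%, near the background in each. Among the 40 methylated member runs the shares were 12.5%, 15% and 7.5%, against 5.73%, 10.5% and 3.13% of all methylated runs. Comparisons among the other 3 groups called 0 member runs by the quasi-binomial test and 0 by limma. At an unadjusted p under 0.05 (quasi-binomial test) were 0 to 2 member runs in each direction. These were 0% to 2.35% of members, against 0.706% to 4.84% of all runs. The background is small there too: 0.00288% of all runs were called higher and 0% lower for Tet2 knockout against Nras G12D, 0.00096% each way for the nonleukemic double mutant against Tet2 knockout, and 0.00576% higher and 0.00096% lower against Nras G12D. No member run was called higher in the labelled leukemic group, where 0.128%, 0.173% and 0.114% of all runs were, in the same order of comparisons. The 3 comparisons with the labelled leukemic group share its libraries.

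The Lmo2 run of 4 CpGs at 103797771 to 103798109 on chromosome 2 lies 13 kb from the centre of the largest low run of the locus, on the side of lower coordinates. It was at 24.6%, 8.6% and 21.9% in the double mutant labelled leukemic, at 55.5%, 50.0% and 53.7% in the nonleukemic one, at 67.1%, 62.6% and 60.5% in Nras G12D and at 55.9%, 68.8% and 63.8% in Tet2 knockout. All 3 labelled leukemic libraries were below all 9 others. The differences were -34.7 points (adjusted p = 0.00523), -45.0 from Nras G12D (0.00206) and -44.5 from Tet2 knockout (0.000878), quasi-binomial test, n = 3. The run held 183 to 394 reads in a library. With limma the calls against the nonleukemic double mutant (adjusted p = 0.145) and Nras G12D (0.121) are lost. Without the 3 libraries with the most chromosome Y positions, of which 2 are Tet2 knockout and 1 nonleukemic, those against the nonleukemic double mutant (0.0549) and Tet2 knockout (0.0843) are lost, though the differences stay at -33.5 and -45.4 points.

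Within the run, the first CpG, at 103797771, was at 47.5%, 27.3% and 0.0% in the double mutant labelled leukemic and at 87.9% to 100% in all 9 others. The last, at 103798109, was at 24.8%, 0.0% and 0.0% against 55.0% to 81.7%. These are given because they were called. The CpGs between them were not called in any comparison. The first and last were called against Tet2 knockout (adjusted p = 0.033 and 0.043), with Runx1 the source of the other 2 of the 4 CpG calls in that comparison, where 0.299% of all CpGs were called lower. The share of members was 0.361%. The other 5 comparisons called 0 member CpGs. At an unadjusted p under 0.05 were 5.68% to 6.67% of members in the 3 comparisons without the labelled leukemic group (6.01% to 6.82% of all CpGs), 13.6% between the double mutants (13.6%) and 13.8% against Nras G12D (12.9%). The genome-wide shares called lower and higher were 0.127% and 0.00544% between the double mutants, 0.047% and 0.00328% for labelled leukemic against Nras G12D, 0.000691% and 8.64e-05% for nonleukemic against Nras G12D, 0% and 0% for nonleukemic against Tet2 knockout, and 0.000432% and 0% for Tet2 knockout against Nras G12D. Against Tet2 knockout, 0.00976% of all CpGs were called higher in the labelled leukemic group, and 0 members. The calls at both Lmo2 CpGs were lost without any 1 of the 3 Tet2 knockout libraries (adjusted p from 0.0519 to 0.151). That at the last CpG was also lost without any 1 Nras G12D or nonleukemic library (0.0596 to 0.0772), and that at the first without nonleukemic replicate 1 (0.0622) or 2 (0.0635).

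**Figure D4:**
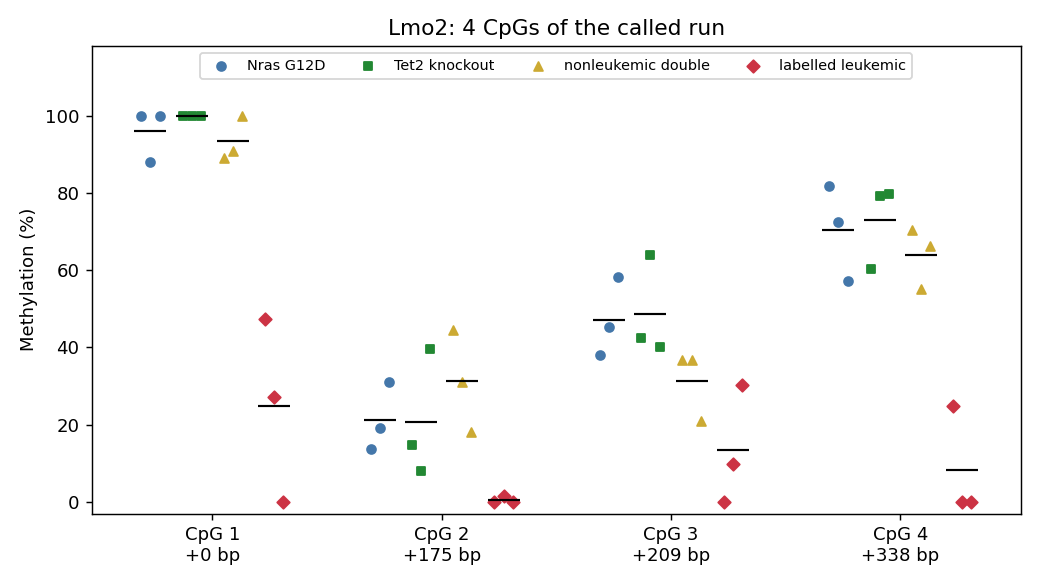
Methylation (y axis, percent) of the 4 CpGs of the Lmo2 run (x axis, distance in bp from the first) in each library, with bars at the group means. The labelled leukemic libraries lie below all others at the first and the last CpG.

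The other calls were at Runx1, on both sides of the start of promoter 2, from which the distances below are taken. The run at 92817887 to 92817936 (4 CpGs), 120.3 kb before the start, was at 21.9% and 47.3% in labelled leukemic replicates 2 and 3, and replicate 1 had no CpG with 10 reads there. The 9 other libraries were at 65.6% to 74.8%. The difference from the nonleukemic double mutant was -36.8 points (adjusted p = 0.0168, n = 2 against 3, quasi-binomial test). This call is lost without any 1 of the nonleukemic replicates (adjusted p 0.0657 to 0.0924). The call against Nras G12D (-33.3 points, adjusted p = 0.0232, quasi-binomial test) is lost without any 1 Nras G12D library (0.0784 to 0.094), and the call against Tet2 knockout (-37.7 points, 0.00505) holds when any 1 library is left out. The sizes rest on 2 libraries: without labelled leukemic replicate 2 the differences are -24.1, -20.6 and -25.0 points, in the same order of groups, and without replicate 3 -49.5, -46.0 and -50.4.

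The run at 92668198 to 92668437 (4 CpGs), 29.3 kb after the start, was at 80.4%, 66.2% and 87.3% in the double mutant labelled leukemic and at 91.8% to 98.9% elsewhere. Some libraries lacked a CpG of it, since labelled leukemic replicate 3 and Tet2 knockout replicate 1 had 2 of the 4 and Tet2 knockout replicate 2 had 3. The CpGs of this run did not all fall. That at 92668437 was at 100% in labelled leukemic replicates 1 and 2, with a group difference of 3.27 points from nonleukemic, while the others were lower. The run's difference of -20.7 points (adjusted p = 0.0115, quasi-binomial test) is lost without any 1 nonleukemic replicate (0.0628 to 0.0657). Its calls against Tet2 knockout (-17.1 points, 0.0381) and Nras G12D (-18.6 points, 0.0266) are lost without labelled leukemic replicate 2 (-11.2 and -12.7 points, 0.081 and 0.0527) and without any 1 library of the group compared (0.0599 to 0.161 and 0.0851 to 0.116). The Tet2 knockout call is also lost without Nras G12D replicate 1 (0.0525) or 2 (0.0527) or any 1 nonleukemic library (0.0570 to 0.0579, quasi-binomial test). With at least 20 reads per CpG the 3 calls are lost (adjusted p = 0.0665, 0.107 and 0.127).

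Runx1 run 92809671 to 92809773, 112.1 kb before the start, had 51.6%, 81.3% and 90.2% in the double mutant labelled leukemic against 88.0%, 92.2% and 94.7% in the nonleukemic one, so the groups overlap. The difference of -17.3 points (adjusted p = 0.0344, quasi-binomial test) shrinks to -5.88 without labelled leukemic replicate 1 and is then uncalled (0.524), and the call is also lost without any 1 nonleukemic library (0.086 to 0.147) or with gaps of at most 100 bp (0.052). Against Tet2 knockout it was -18.8 points (0.0257), lost without labelled leukemic replicate 1 (-7.45 points, 0.29) or Tet2 knockout replicate 1 (0.127) or 3 (0.0676). The run at 92599454 to 92599536 was called only against Tet2 knockout (-14.1 points, adjusted p = 0.0198, quasi-binomial test) and overlaps it, with 68.3%, 80.1% and 100% against 99.6%, 99.0% and 92.1%. Without labelled leukemic replicate 1 it is -6.89 points (0.0935), and the call is also lost without Tet2 knockout replicate 1 (0.054) or 2 (0.0839). The last CpG of this run, at 92599536, was 3.28 points higher in the labelled leukemic group than in Tet2 knockout, while the others were lower. A further called run, at 92614905 to 92615242, was called against the nonleukemic double mutant and Tet2 knockout (-12.8 points in both, adjusted p = 0.0305 and 0.0132, quasi-binomial test) and was picked for mention after its values were seen. It was at 71.1%, 86.1% and 84.1% in the double mutant labelled leukemic and at 94.9%, 92.6% and 92.2% in the nonleukemic one. Its call against the nonleukemic double mutant is lost without any 1 nonleukemic library, where the Lmo2 run was the only member run called. The 2 Runx1 CpGs called, at 92748138 and 92695088, were at 62.7%, 60.4% and 72.1% and at 54.6%, 67.0% and 85.7% in the double mutant labelled leukemic, against 100% in every Tet2 knockout library. Their Tet2 knockout calls are lost without any 1 Tet2 knockout library (adjusted p 0.0754 to 0.136), and that at 92695088 also without labelled leukemic replicate 1 (0.0525) or any 1 Nras G12D or nonleukemic library (0.0511 to 0.0797).

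**Figure D5:**
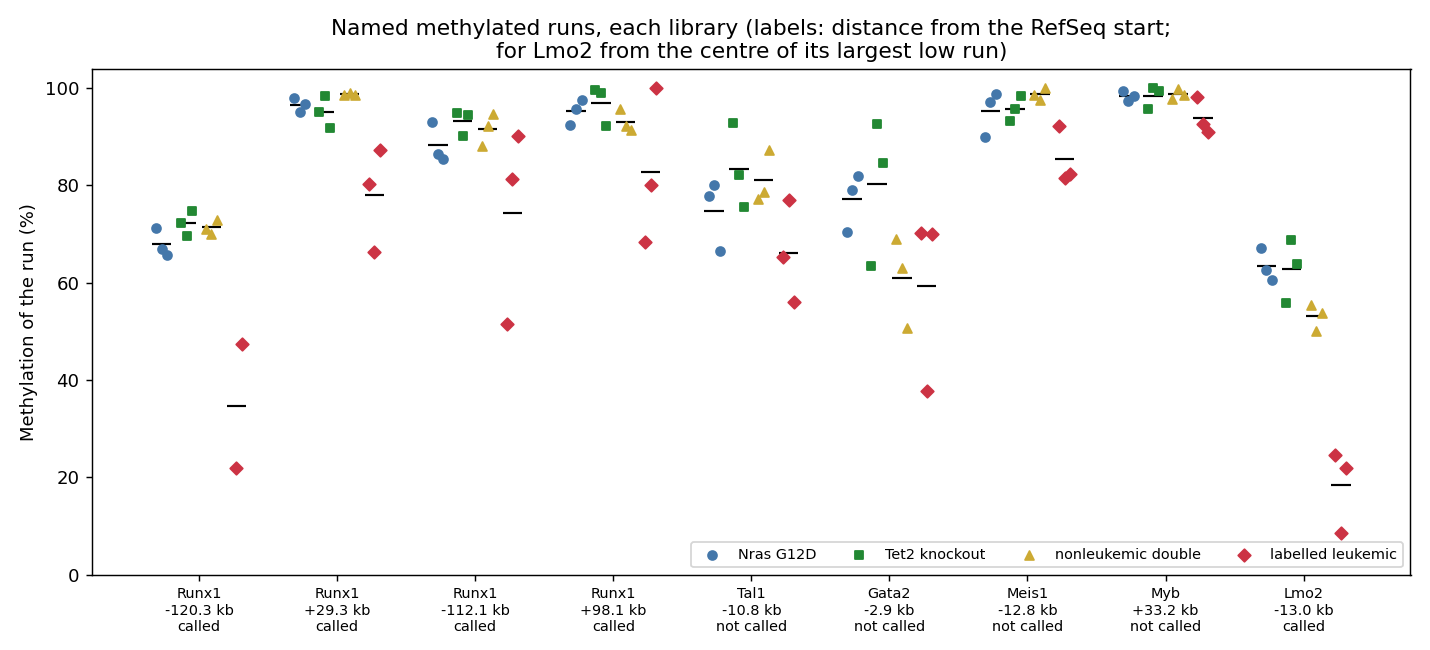
Methylation of each named methylated run (y axis, percent) in each library, with bars at the group means. Labels on the x axis give the gene, the distance from the start and whether a comparison called the run. The labelled leukemic points are far below the others at the Lmo2 run and at the Runx1 run 120.3 kb before the start of promoter 2.

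The calls at Runx1 run 92614905 are lost in each of 3 other fits. So are all calls at the Runx1 runs 92817887, 92668198, 92809671 and 92599454. Their adjusted p was 0.0836 to 0.464 with limma, 0.0597 to 0.187 when the 2 groups compared were fitted alone (quasi-binomial test), and 0.0747 to 0.539 without the 3 libraries with the most chromosome Y positions.

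The widest methylated runs of the other loci were not called. Tal1 at 114719535 to 114719764 was -14.9 points between the double mutants (adjusted p = 0.154), Meis1 at 18931659 to 18931784 was -13.4 (0.052) and Myb at 20847529 to 20847604 was -4.86 (0.0996; quasi-binomial test). The Meis1 run gains a call without labelled leukemic replicate 1 (adjusted p = 0.0171), and the Tal1 run with gaps of at most 100 bp (-11.7 points, 0.0446). Over all 40 methylated member runs, 9 had labelled leukemic libraries wholly below the nonleukemic ones, where the genome-wide share is 23.7%, so 9 of 40 is no more than the background.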

How the data were processed

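The authors' deposited tables list each CpG strand position with its coverage, a count of reads (whole reads, at least 10), and the percent of reads with C and with T. Per the submitters' processing notes, Bismark was used with mm9, and its version is not given in the sources used here. Methylated and unmethylated reads were computed from coverage and percent, and strands were summed. A CpG was tested when 2 libraries of each group had at least 10 reads. A quasi-binomial model of reads on group over all 12 libraries gave a Pearson dispersion, moderated as in limma and kept at or above 1, and p-values were adjusted over the whole genome table (Benjamini-Hochberg). CpG calls needed adjusted p under 0.05 and 25 points, run calls 10 points. Runs had at least 3 CpGs with gaps of at most 200 bp. Methylation means over classes used exact permutation tests. The script was tested on simulated data, and its moderation was checked against limma 3.58.1 (R 4.3.3); fits used Python 3.11.15 with NumPy 2.4.6 and SciPy 1.17.1. Members and lists were chosen with earlier results of these data known. Named per locus were the low run with the most CpGs, the methylated run with the widest range of group means, up to 4 called runs and up to 5 called CpGs. Exon and intron positions were not used, since no mm9 annotation was at hand.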

Additional observations from a re-analysis of the deposited data

How the results depend on the processing

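Member calls depended on the fit. With limma on log2 ratios (pseudocount 1), the run calls of the double mutant labelled leukemic were 0 against nonleukemic, 1 against Tet2 knockout and 0 against Nras G12D, and 1 CpG was called against Tet2 knockout. Fitting only the 2 groups compared gave 1, 1 and 1 run and 0 CpGs. Without the 3 libraries with the most chromosome Y positions (Tet2 knockout replicates 1 and 2 and nonleukemic replicate 1, each with 251 to 360) there were 0, 0 and 1 run and 1 CpG, a fit in which the lone Tet2 knockout library is assumed to vary like the other groups. With at least 10 reads in all 12 libraries 2 runs were called against nonleukemic and 1 against Nras G12D, and with gaps of at most 100 bp 3 and 1. A difference of at least 25 points left 2 runs against nonleukemic and 2 against Tet2 knockout, and one of 10 points gave 1 CpG against nonleukemic. Leaving out 1 library gave 1 to 8 runs against nonleukemic, 1 to 8 against Nras G12D and 4 to 10 against Tet2 knockout, and 0 to 3, 0 to 5 and 0 to 10 CpGs. The lowest counts came without a Nras G12D library (1 run against Nras G12D) or a nonleukemic one (1 run against nonleukemic), and the highest without labelled leukemic replicate 3 (8, 8 and 10 runs, 10 CpGs). Comparisons of the other 3 groups had 0 calls in each setting. The cause was not tested. Coverage weighting moved the mean of methylated CpGs of the 6 loci to -9.05 points (labelled leukemic minus Tet2 knockout) and -5.53 (nonleukemic minus Tet2 knockout). Of uncalled runs between the double mutants, Gata2 at 88140666 turned to 0.394 points without the CpGs of the most extreme coverage, 9.17 without labelled leukemic replicate 2 (-7.09 to 9.17 when 1 library was left out), 2.45 without nonleukemic replicate 1 and 2.45 without the chromosome Y libraries. Gata2 at 88143594 turned to -0.141 with tiles of 1000 bp, Lmo2 at 103810472 to 0.0909 with 100 bp gaps and 0.0576 without nonleukemic replicate 2 (-0.320 to 0.0576), and Myb at 20880974 to -0.0444 without labelled leukemic replicate 1 (-0.0444 to 0.590). The 18 same-numbered pairs of libraries correlated at -0.00916 to 0.00811 in their deviations from the group means at methylated CpGs. This shows no large shared effect but cannot exclude a smaller one. With a replicate block, 3 runs were called against nonleukemic.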

Other observations

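Promoters of other blood transcription factors were read in the same way, for genes fixed with the members. Of 14 such genes looked for, 5 were placed on mm9: Gfi1 (a repressor needed for stem cell quiescence), Cbfb (the partner subunit of Runx1), Tcf3 (an E protein partner of Tal1), Hhex (a homeobox factor) and Ldb1 (which bridges Lmo2 complexes, 2 promoters). Their 116 tested CpGs gave 0 calls in the 6 comparisons by the quasi-binomial test. At an unadjusted p under 0.05, 7 of them were lower and 2 higher in the double mutant labelled leukemic than in the nonleukemic one. Of all tested CpGs, 10% were lower and 3.62% higher at that limit. Each of their placed promoters was at 2.74% or less in every library, and the highest was Gfi1 in labelled leukemic replicate 2.

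A single library stood apart from all others at 2 member CpGs, each a rise from under 10% to over 70% in Tet2 knockout replicate 2 (Gata2 and Runx1), and the other 11 libraries had 0 such CpGs. No position of the 6 windows or the 1 Mb on either side was covered by at least 20 reads in all libraries of some groups while absent from the others.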
